A study of Mus musculus with 4 samples.

Results

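Interleukin-22 transcripts were followed in droplet-based single-cell RNA sequencing of mouse thymus, as the 2 genes Il22 and Iltifb, both present among the 31053 genes of each of 4 libraries. Members of the pair were taken by symbol, and cells were kept when they held over 500 detected genes and under 10% of unique molecular identifiers (UMIs) from mitochondrial genes. The pair had been chosen because its level was known to rise in leukemia in these libraries, so its levels are a description and carry no test. All mice were FVB/N. The WT library came from a wild type thymus at 6 weeks and the preleukemic library from a Tal1/Lmo2 thymus at 6 weeks. The leukemic libraries T-ALL#1 and T-ALL#2 came from Tal1/Lmo2 mice with overt disease at 3 months, a female and a male per the labels. Both transgenes were driven by the proximal Lck promoter, which is active in developing T cells, and viable singlets negative for 7-AAD were sorted after lysis of red cells. Each library was 1 thymus, so only the leukemic group had 2 samples, and leukemia was not separable from age between these groups.

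IL-22 is a cytokine of the IL-10 family that lymphocytes secrete and that acts on epithelial cells, where it drives barrier defence and repair. It binds a receptor of IL22RA1 and IL10RB and signals through JAK1, TYK2 and STAT3, while the soluble IL22RA2 neutralises it. Its known sources are type 3 innate lymphoid cells, Th17 and Th22 cells and some gamma-delta T cells, in which AHR, STAT3, IL-23 and IL-1 promote its transcription. Iltifb is a close copy of Il22 in the mouse reference genome.

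In the GENCODE M21 annotation of GRCm38, Il22 (ENSMUSG00000074695) lay at chr10:118204942-118210047 on the plus strand and Iltifb (ENSMUSG00000090461) at chr10:118289629-118295038 on the minus strand. Their lower coordinates were 84687 bases apart, between Mdm1 and Ifng. Each gene had a protein-coding transcript of 5 exons, and Iltifb also had a noncoding transcript of 2 exons. The coding sequences of 537 bases differed at 9 positions, an identity of 98.3%, of which 6 were at the third base of a codon. The 3′ untranslated regions were 96.6% identical, with 17 mismatches and 1 gap. The first coding exon is shown because the copies are nearly the same there, with capitals at the differing bases. It lies at chr10:118204991-118205176 (plus strand) in Il22 and chr10:118294804-118294989 (minus strand) in Iltifb.
Il22: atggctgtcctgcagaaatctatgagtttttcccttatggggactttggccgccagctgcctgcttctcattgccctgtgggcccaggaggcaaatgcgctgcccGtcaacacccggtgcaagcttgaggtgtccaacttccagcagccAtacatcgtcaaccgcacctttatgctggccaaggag
Iltifb: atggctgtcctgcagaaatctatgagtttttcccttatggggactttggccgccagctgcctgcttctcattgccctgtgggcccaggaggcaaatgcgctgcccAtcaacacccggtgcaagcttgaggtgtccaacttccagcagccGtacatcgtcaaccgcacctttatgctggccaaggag

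These 186 bases differed at 2 positions, G106A and A150G, counted from the A of the start codon with the base of Il22 first. The coding part of the last exon held another 3 differences, T474C, G486A and T492C, in 75 bases just before the 3′ untranslated region, at chr10:118209449-118209523 in Il22 and chr10:118290154-118290228 in Iltifb.
Il22: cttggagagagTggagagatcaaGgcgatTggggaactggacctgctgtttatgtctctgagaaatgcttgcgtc
Iltifb: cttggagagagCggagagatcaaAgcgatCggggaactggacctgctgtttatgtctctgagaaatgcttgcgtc

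Of stretches of 150 bases of the last exon, the length of a sequencing read here, 1.78% of those of Il22 occurred unchanged in the transcript of Iltifb. For stretches of 50 bases this share was 38.4%. The mice were FVB/N and the reference is of another strain, and how reads that matched both copies were counted is not given in the sources used here, so the division of UMIs between Il22 and Iltifb is uncertain and their sum is given beside it.

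The sequences upstream of the annotated starts are shown because both genes appeared in the same libraries and cells. RefSeq windows of 300 bases (250 before and 50 after the start, GRCm38.p6) were found for both symbols, and the part before the GENCODE start is printed, at chr10:118204714-118204941 (plus strand) for Il22 and chr10:118295039-118295288 (minus strand) for Iltifb. Capitals mark the motif matches named after the sequences, all in that of Il22.
Il22: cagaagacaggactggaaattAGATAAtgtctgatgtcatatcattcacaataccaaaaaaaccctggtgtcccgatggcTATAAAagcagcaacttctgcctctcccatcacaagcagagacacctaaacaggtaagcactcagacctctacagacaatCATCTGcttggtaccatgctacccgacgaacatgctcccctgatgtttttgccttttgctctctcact
Iltifb: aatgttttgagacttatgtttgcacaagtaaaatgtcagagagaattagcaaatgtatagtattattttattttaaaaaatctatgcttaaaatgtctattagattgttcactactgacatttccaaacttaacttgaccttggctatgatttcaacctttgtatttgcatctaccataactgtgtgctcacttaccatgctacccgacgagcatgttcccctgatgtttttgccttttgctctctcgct

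The windows were alike near the start, where the longest shared run was 30 bases, and differed further upstream. Motifs were searched on both strands, and no matches overlapped. A TATA box (TATAAA) was in the Il22 window and not in that of Iltifb, and 13.6% of 32817 such mouse windows held it. The TAL1 E-box CAGATG (17.2% of windows) and the GATA core AGATAA (11.2%) were each in the Il22 window once. None of the motifs named here was in the Iltifb window. No match in either window was found for TGGGAA (RBPJ, 25.6%), CAGCTG (E proteins, 16.3%), TGTGGT (RUNX, 16.8%), GCGTG (AHR, 32.4%) or TTCNNNGAA (STAT, 8.29%). A match is only a run of letters and says nothing about binding.

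The kept cells numbered 4220 (WT), 5576 (preleukemic), 5773 (T-ALL#1) and 1975 (T-ALL#2), with 24042062 to 70745712 UMIs per library and median depths of 3800.5, 4888, 8742 and 17581 UMIs per cell. At most 9 barcodes were shared between any pair of libraries. None of 10 thymocyte markers was at 0 in any library. Tal1 was at 0 in WT, at 410 CPM (UMIs of a gene scaled to the UMI total of the kept cells, as the axes of the plots spell out) before leukemia, and at 68.3 and 234 CPM in the leukemias. The WT and preleukemic libraries are labelled male, yet held Xist at 1380 and 1869 CPM, near the 1932 CPM of the female T-ALL#1, and no UMI of the Y-linked Ddx3y. In T-ALL#2 Xist was at 0.0828 CPM and Ddx3y at 40.6 CPM. The sex label thus went against the reads in 2 libraries, and no result here is grouped by sex.

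Il22 and Iltifb were all but absent before leukemia and were detected in both leukemias. In WT thymus 1 UMI of Il22 was found, in 1 cell with Cd8a and Il2ra, and none of Iltifb. In the preleukemic thymus neither gene had a UMI in 5576 cells, which allows a share of cells with a UMI of up to 0.0538% (0.0661% by the exact limit) at a median depth of 4888 UMIs. This limits cells with a detected transcript and not cells that express the genes. In T-ALL#1, Il22 had 7477 UMIs and Iltifb 10591. In T-ALL#2, Il22 had 285 UMIs and Iltifb 810.

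In CPM, Il22 was at 106 (95% Poisson interval 103 to 108) in T-ALL#1 and at 7.86 (6.98 to 8.83) in T-ALL#2. Iltifb was at 150 (147 to 153) in T-ALL#1 and at 22.4 (20.8 to 23.9) in T-ALL#2. The summed level of the pair was 255 CPM (252 to 259) in T-ALL#1, while in T-ALL#2 it was 30.2 CPM (28.5 to 32.1). As counted, Iltifb had more UMIs than Il22 in both leukemias, and T-ALL#1 held 13.4 times the Il22 level and 6.70 times the Iltifb level of T-ALL#2. These intervals cover counting error only, and do not measure the spread between mice. Both ratios are of whole libraries, whose shallowest kept cells held 641 (T-ALL#1) and 3503 UMIs (T-ALL#2). Among cells of 8192 to 16384 UMIs both gaps were smaller, with Il22 at 68.5 against 11.9 CPM and Iltifb at 127 against 36.5 CPM. From 2048 to 4096 UMIs, where T-ALL#2 had 37 cells, the Il22 gap was wider (596 against 35.2 CPM). The part of depth in the ratios was not tested. Against a floor of 3 UMIs per library, Il22 was at least 1439-fold higher in T-ALL#1 than in the preleukemic library and at least 107-fold higher in T-ALL#2. Iltifb was at least 2039-fold higher in T-ALL#1 by the same floor, and at least 304-fold higher in T-ALL#2. Ranked by fold over the preleukemic library, Iltifb and Il22 were first and second in T-ALL#1, and 6th and 24th in T-ALL#2. A change of at least 100-fold was seen in 17 of 9620 genes (0.177%) of at least 5 CPM in T-ALL#1 or the preleukemic library, and for T-ALL#2 in 25 of 9569 (0.261%). As a mean of each cell's own CPM, which weights small cells more, Il22 was at 250.1 and 14.5 CPM and Iltifb at 299 and 35.5 CPM in T-ALL#1 and T-ALL#2. By summed counts Iltifb ranked 970th of 16721 detected genes in T-ALL#1 and 4508th of 16418 in T-ALL#2.

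**Figure D1:**
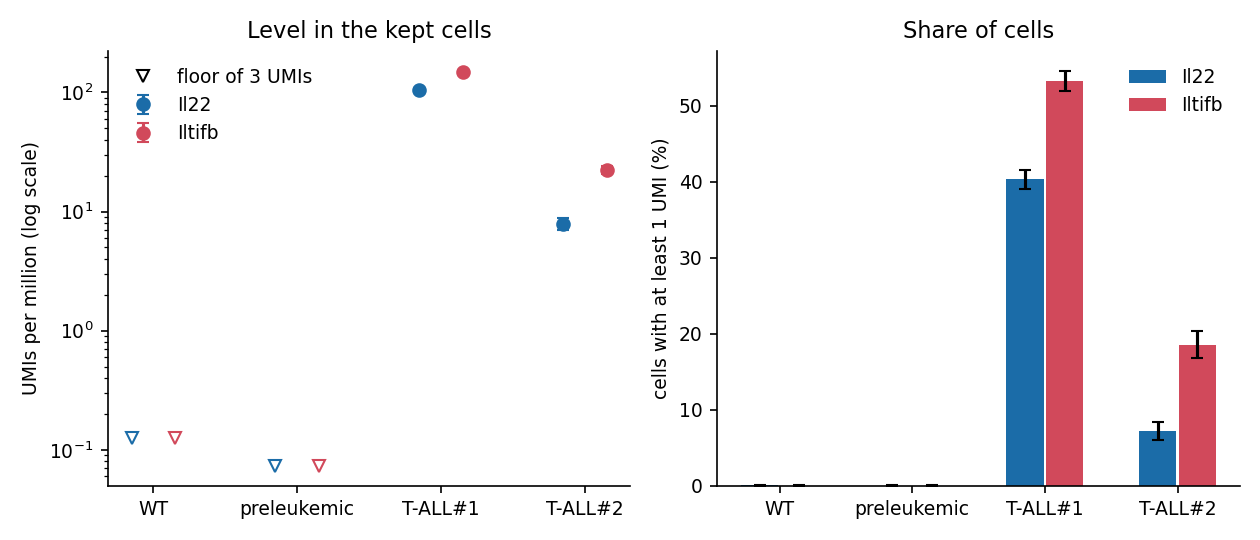
Left, level of Il22 and Iltifb in CPM (log axis) in each library, with 95% Poisson intervals, and open triangles at the floor of 3 UMIs where a library held at most 1 UMI. Right, share of cells with at least 1 UMI, with 95% Clopper-Pearson intervals: both genes were near 0% in WT and the preleukemic library, and Iltifb reached 53.2% of cells in T-ALL#1 and 18.5% in T-ALL#2.

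At least 1 UMI of either gene was in 3389 of 5773 cells of T-ALL#1 (58.7%, 95% Clopper-Pearson interval 57.4 to 59.98) and in 409 of 1975 cells of T-ALL#2 (20.7%, 18.9 to 22.6). After thinning each cell to 2000 UMIs the shares were 41.5% and 7.24%, so T-ALL#1 stayed the higher at equal depth. The median positive cell held 4 UMIs in T-ALL#1 and 2 in T-ALL#2, and the richest held 42 and 19. Cells with at least 5 UMIs numbered 1599 in T-ALL#1, holding 78.5% of all UMIs of the pair, and 65 in T-ALL#2 (3.29% of cells), holding 47.4%. Of the 409 positive cells of T-ALL#2, 195 held 1 UMI.

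Free RNA was measured beside these shares. In T-ALL#2, the only matrix with every barcode, 1187985 barcodes of at most 100 UMIs held Il22 at 7.16 CPM (3.81 to 12.2) and Iltifb at 22.6 CPM (16.2 to 30.6), about the levels of the cells. Among cells with at least 3 B or myeloid markers and at most 3 thymocyte markers, a rule set after the data were seen, 1 of 14 in T-ALL#1 and 0 of 9 in T-ALL#2 had a UMI of the pair, at median depths of 4186 and 4678 UMIs. The interval for T-ALL#2 reached 33.6%, so its lower shares could not be told apart from free RNA at this number of cells.

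The copies were found together more often than their own frequencies give. Both were detected in 2010 cells of T-ALL#1 and 98 of T-ALL#2. Within bins of equal depth 1448 and 28.0 cells were expected if detection of each were independent, so the observed counts were 1.39 and 3.50 times the expected. With bins also split by cycling and by Cd4, Cd8a and Il2ra these ratios were 1.23 and 2.68. The part of the uncertain division of reads between the copies in these ratios was not tested. Of cells with Il22, 86.4% in T-ALL#1 and 69.5% in T-ALL#2 also had Iltifb. Of cells with Iltifb, 65.4% and 26.8% also had Il22. Il22 made up 41.4% of the UMIs of the pair in T-ALL#1 (40.7 to 42.1) and 26.0% in T-ALL#2 (23.5 to 28.7). This share fell with cell depth in T-ALL#1, from 49.4% at 2048 to 4096 UMIs per cell to 30.0% at 16384 to 32768, and the corresponding bins of T-ALL#2 were at 36.3% (from 4096 to 8192 UMIs) and 22.8%.

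The level fell as cells held more RNA. In T-ALL#1 the pair was at 1206 CPM (1171 to 1241) in cells of 2048 to 4096 UMIs, where 82.4% of cells were positive. It was at 95.2 CPM (92.0 to 98.5) in cells of 16384 to 32768 UMIs, where 39.1% were positive despite the greater depth. Mean UMIs of the pair per cell in the same bins were 3.98 and 2.18, so fewer transcripts were detected per cell in the deeper of these bins. This number did not fall steadily, and was highest, at 4.31, in cells of 4096 to 8192 UMIs. In T-ALL#2 the level was 136 CPM (119 to 154) at 4096 to 8192 UMIs and 17.4 CPM (15.7 to 19.3) at 16384 to 32768, with 0.824 and 0.413 UMIs per cell. From 32768 to 65536 UMIs it was 19.5 CPM (16.0 to 23.7), with 0.734 UMIs per cell, more than in the bin before.

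Cycling cells had less of the pair as a class. Cells were called cycling when 97 S and G2M genes together exceeded 79.7 UMIs per 10000, which took 38.8% of T-ALL#1 and 39.9% of T-ALL#2, and 16.5% and 26.6% of cells lay within 0.5 log2 of that limit. In T-ALL#1 the pair was at 119 CPM in cycling cells (116 to 122) and at 530 CPM in the others (521 to 540), a ratio of 4.47 (4.33 to 4.62). The positive share was 44.5% in cycling cells and 67.7% in the others. In T-ALL#2 the levels were 23.3 CPM (21.3 to 25.5) and 38.8 CPM (35.9 to 42.0), a ratio of 1.67 (1.48 to 1.88), while the positive shares were 20.9% and 20.6%. The ratio for Il22 alone in T-ALL#1 (6.54) was above that for Iltifb (3.53).

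Depth and cycling were closely tied, with median depths of 20446 and 4937 UMIs in cycling and other cells of T-ALL#1 and 25532 and 12568.5 in T-ALL#2, and the direction at like depth differed between shallow and deep cells. Between 8192 and 16384 UMIs, cycling cells of T-ALL#1 held the pair at 248 CPM (237 to 260) and other cells at 146 CPM (137 to 154). Between 16384 and 32768 UMIs they held 102 CPM and the others 34.0 CPM. Between 2048 and 8192 UMIs, where few cells cycled, the others were higher, at 791 CPM against 304 CPM between 4096 and 8192 UMIs. In T-ALL#2, cycling cells were also the higher class from 8192 to 16384 UMIs (72.8 CPM, 58.7 to 89.1, against 43.1 CPM, 38.0 to 48.8) and from 16384 to 32768 UMIs (20.6 against 11.96 CPM). After thinning each cell to 2000 UMIs, cycling and other cells were at 172 and 783 CPM in T-ALL#1 and at 36.1 and 69.1 CPM in T-ALL#2.

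**Figure D2:**
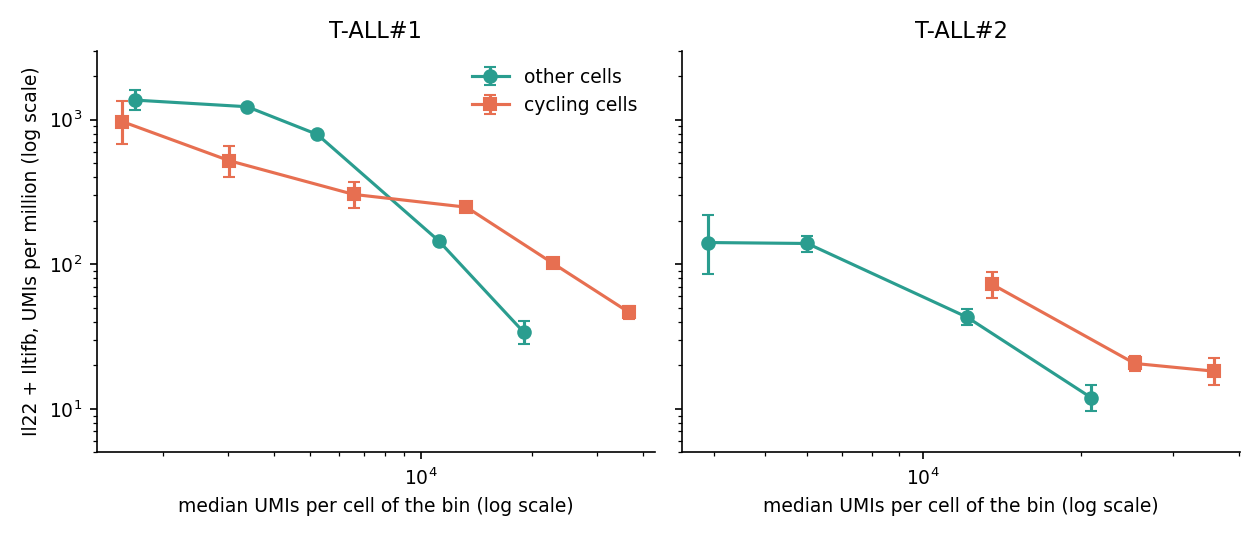
Summed level of Il22 and Iltifb in CPM (log axis) against the median UMIs per cell of each depth bin (log axis, bins of at least 20 cells), for cycling and other cells of each leukemia, with 95% Poisson intervals. The level fell with depth in both classes, and above 8192 UMIs per cell the cycling cells lay higher in both leukemias.

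Levels differed between cells grouped by detection of Cd4, Cd8a and Il2ra (the IL-2 receptor alpha chain, CD25, which marks DN2 and DN3 thymocytes). In T-ALL#1, cells with all 3 transcripts had the most, Il22 at 224 CPM and Iltifb at 293 CPM (517 CPM summed), and 81.5% of 1891 cells were positive. Cells with none of the 3 had the least, at 9.55 and 13.2 CPM (22.8 CPM summed), and 14.6% of 574 cells were positive. The ratio of the summed levels was 22.7 (19.7 to 26.3). Within T-ALL#1, cells with Il2ra were above those without it at each setting of the coreceptors, by 4.77 times (4.07 to 5.61) with neither, 3.06 times (2.84 to 3.29) with Cd8a, 6.96 times (5.67 to 8.60) with Cd4 and 1.98 times (1.87 to 2.11) with both. The summed levels of cells with Cd8a and Il2ra (267 CPM, 260 to 275) and with Cd4 and Cd8a (261 CPM, 246 to 276) did not differ beyond their intervals.

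T-ALL#2 showed another order before cells were thinned to 2000 UMIs. Cells with Cd4 and Cd8a without Il2ra were highest, with Il22 at 35.5 CPM and Iltifb at 72.8 CPM (108 CPM summed) in 65 cells, and cells with all 3 transcripts held 18.0 and 41.0 CPM (59.0 CPM summed) in 177 cells. The summed level with all 3 was 0.545 times (0.406 to 0.740) that with Cd4 and Cd8a. Cycling cells made up 57 of the 177, and among other cells the levels were 94.9 CPM (79.3 to 113) in 120 cells and 124 CPM (94.7 to 159) in 60 cells, with overlapping intervals. The 61 UMIs of the pair in these 60 cells came from 16 cells, and the 20 of Il22 from 4. The intervals take UMIs as independent and do not cover the spread between cells. Cells with Il2ra alone, the detection pattern nearest to DN3 thymocytes, held 13.6 CPM summed (11.4 to 16.0) in 498 cells, against 14.8 CPM (10.3 to 20.5) in the 171 cells with none, a difference within the intervals. The groups with Cd4 alone (15.1 CPM) and with Cd4 and Il2ra (16.2 CPM) did not differ from these either. In both leukemias, cells with Cd8a and Il2ra exceeded those with Il2ra alone, by 2.46 times (2.27 to 2.67) and 2.81 times (2.34 to 3.40). Groups also differed in depth, from 4962.5 to 15865.5 median UMIs in T-ALL#1 and from 7370 to 21637 in T-ALL#2, and cells were therefore also thinned to 2000 UMIs each and grouped anew by the transcripts still detected. Thinning evens the UMIs counted per cell and not the RNA content, with which the level fell. Differences in RNA content between groups therefore remain in the thinned values.

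After thinning, cells with none of the 3 transcripts were lowest in both leukemias, at 132 CPM (121 to 144) in T-ALL#1. Such cells of T-ALL#2 were at 26.9 CPM (20.4 to 34.8). They lay below cells with Il2ra alone at 50.2 CPM (36.1 to 68.2), unlike before thinning. Cells of T-ALL#2 with Cd8a and Il2ra (176 CPM, 129 to 234) were above cells with Cd8a alone (80.2 CPM, 58.1 to 108). Those with Cd4 and Il2ra (100 CPM, 27.2 to 256) and with Cd4 alone (158 CPM, 81.6 to 276) had overlapping intervals. The top of the order changed. In T-ALL#1, cells with Cd4 and Il2ra (1203 CPM, 1086 to 1330) and with all 3 transcripts (1137 CPM, 1075 to 1200) had overlapping intervals. Cells with Cd8a and Il2ra (943 CPM, 898 to 989) were then above cells with Cd4 and Cd8a (809 CPM, 748 to 873), and cells with Cd4 alone were at 475 CPM (401 to 557), so the gap to Cd4 and Il2ra was smaller than without thinning. In T-ALL#2, cells with all 3 transcripts were at 389 CPM (156 to 801) and cells with Cd4 and Cd8a at 187.5 CPM (85.7 to 356), the reverse of the unthinned order, from 9 and 24 cells with overlapping intervals. No order of these 2 groups in T-ALL#2 is read from these values.

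The contrast of cycling and other cells was also taken within these groups. In T-ALL#1 other cells had 3.84 to 9.55 times the summed level of cycling cells in all 8 groups. In T-ALL#2 this ratio ran from 0.942 in cells with Il2ra alone to 4.01 in cells with Cd4, Cd8a and Il2ra over the 6 groups with at least 20 cells of each class.

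**Figure D3:**
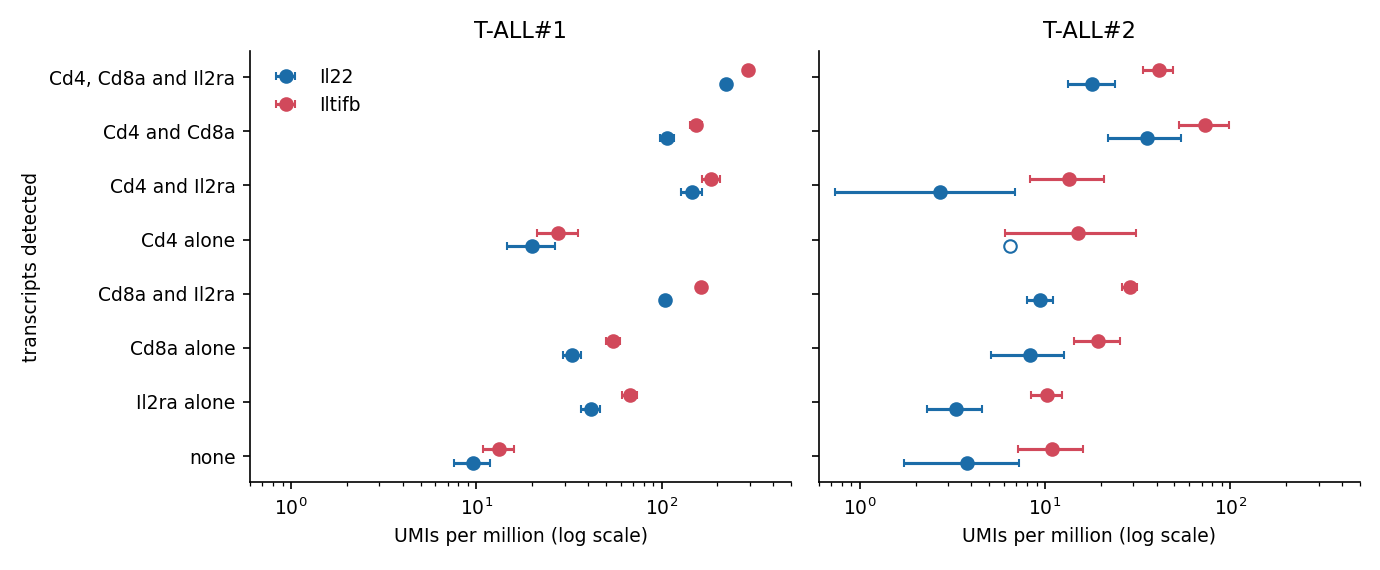
Levels of Il22 and Iltifb in CPM (log axis) in 8 cell groups defined by detected transcripts of Cd4, Cd8a and Il2ra, for each leukemia, with 95% Poisson intervals and an open circle at the floor of 3 UMIs where no UMI was found. In T-ALL#1 both genes were highest with all 3 transcripts, and in T-ALL#2 with Cd4 and Cd8a without Il2ra.

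Genes with the most similar pattern were sought over 25 groups of at least 50 cells, defined by leukemia, the 3 transcripts and cycling, on a log2 scale with each leukemia centred on its own mean. The 5 closest of 6651 genes were Dtx1 (Pearson r = 0.96), Nsg2 (0.95), Arhgef10l (0.95), D1Ertd622e (0.94) and Mapkap1 (0.94). Dtx1, a target of NOTCH1 that encodes a ubiquitin ligase, had r = 0.98 within T-ALL#1 and 0.85 within T-ALL#2. Of 12 Notch targets and DN3 genes compared, 10 had a positive r and the median was 0.75, against 3797 of 6651 and 0.17 over all genes. Of 9 regulators of Il22, 8 had a positive r (median 0.64), as had 16 of 18 coreceptor and maturation genes (median 0.57). The 43 S-phase genes had a median of −0.57. Rag1 was at 0.86 and Notch1 at 0.82. Il2ra was at 0.44, with 0.65 within T-ALL#1 and −0.21 within T-ALL#2, and Tal1 at 0.26, with 0.13 and 0.93, so for these the leukemias differed. These groups share cells' depth and the markers that define them, and the correlations are descriptions.

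To ask which other transcripts accompany the pair, cells with at least 1 UMI of Il22 or Iltifb were compared with cells of the same depth that had none, 1772 against 1772 in T-ALL#1 and 408 against 408 in T-ALL#2, as 4 summed profiles. The matched positive cells of T-ALL#1 were drawn from 3389 and had a median depth of 12715 UMIs, against 5428 in all positive cells. The contrast in T-ALL#1 is thus of its deeper positive cells, while in T-ALL#2 408 of 409 positive cells were used. Both sums of a leukemia come from the same mouse. With no term for the leukemia, edgeR's quasi-likelihood test called 0 of 11422 genes (0.0%) at a Benjamini-Hochberg adjusted p under 0.05 and 150 at an unadjusted p under 0.05, and DESeq2 called 5, all lower (Cd74, Igkc, Rbpms, Calml4 and Ncf4, named after their values were seen). The adjusted p of every gene named here was 1 in that fit. With the leukemia as a block it called 359 genes (3.14%), 175 higher (1.53%) and 184 lower (1.61%) in cells with the pair, and all p-values that follow are from edgeR with this block. Of the 359 genes, 358 changed in the same direction in both leukemias, the exception being Trbv2, a T cell receptor segment with no UMI in the sums of T-ALL#2. With 2 mice the p-values describe these leukemias only.

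Of 18 tested regulators of Il22, 2 rose in cells with the pair, among them the repressor Bcl6, and the transcription factors Runx3, Tox and Ikzf2 fell, and the median log2 fold change was −0.21, against −0.004 over all genes. Ahr was at 1.60 and 2.99 CPM in T-ALL#1 and at 2.08 and 1.19 CPM in T-ALL#2, with and without the pair (adjusted p = 0.66). Stat3 had a log2 fold change of 0.02 ± 0.07 (SE, adjusted p = 0.96).

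Ptcra and the CD8 chains Cd8a and Cd8b1 rose with the pair. Ptcra, the pre-T cell receptor alpha chain, was at 207 against 84.4 CPM in T-ALL#1 and at 35.8 against 10.4 CPM in T-ALL#2 (log2 fold change 1.33 ± 0.10 (SE), adjusted p = 0.0036). It was not called after matching on Cd4, Cd8a and Il2ra (adjusted p = 0.34). Cd8a was at 428 against 195 CPM and at 201.3 against 111 CPM (0.97 ± 0.07 (SE), adjusted p = 0.0033). Among 16 tested Notch targets and DN3 genes, Hes1, Notch1, Notch3, Ptcra and Rag1 rose and Igf1r and Myc fell, with a median log2 fold change of 0.45. Dtx1 was at 335 against 152 CPM and 208 against 139 CPM (adjusted p = 0.058), and Il2ra at 262 against 92.2 CPM and 243 against 173 CPM (adjusted p = 0.43). Of 24 coreceptor and maturation genes 3 rose, among them Cd8a and Cd8b1, and 3 fell, among them Ccr9 and Itm2a.

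Among genes of at least 5 in average log2 CPM, the 10 that rose most in the leukemia where they rose less were P2rx1, Ptcra, Cd8a, Ets2, Ldhb, Rnf157, Adam19, Cdk5rap2, Map4 and Elavl4. P2rx1, an ATP-gated ion channel, was at 102 against 39.2 CPM in T-ALL#1 and at 36.5 against 14.9 CPM in T-ALL#2 (1.31 ± 0.07 (SE), adjusted p = 0.0024). Ldhb, a lactate dehydrogenase subunit, was at 522 against 301 CPM and at 259 against 139 CPM (0.78 ± 0.04 (SE), adjusted p = 0.0024). These 10 kept an adjusted p under 0.05 after matching on cycling, other than Elavl4 (adjusted p = 0.12), and after matching on the 3 transcripts, other than Ptcra.

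Among the 10 that fell most by the same rule were Igfbp4, Gzma, Itm2a, Igf1r, Sapcd1, Tcrg-C4, Gimap4, Khk and Fxyd5. Gzma, which encodes the cytotoxic protease granzyme A, was at 431 against 1026 CPM in T-ALL#1 and at 569 against 1339 CPM in T-ALL#2 (−1.30 ± 0.04 (SE), adjusted p = 0.00017). Igfbp4, a binding protein of insulin-like growth factors, was at 8.47 against 53.4 CPM and at 23.01 against 65.0 CPM (−2.23 ± 0.28 (SE), adjusted p = 0.040). Il7r, the receptor for IL-7, fell by 1.71 on the log2 scale (SE 0.16, adjusted p = 0.0050). All 10 were called under both further matchings.

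**Figure D4:**
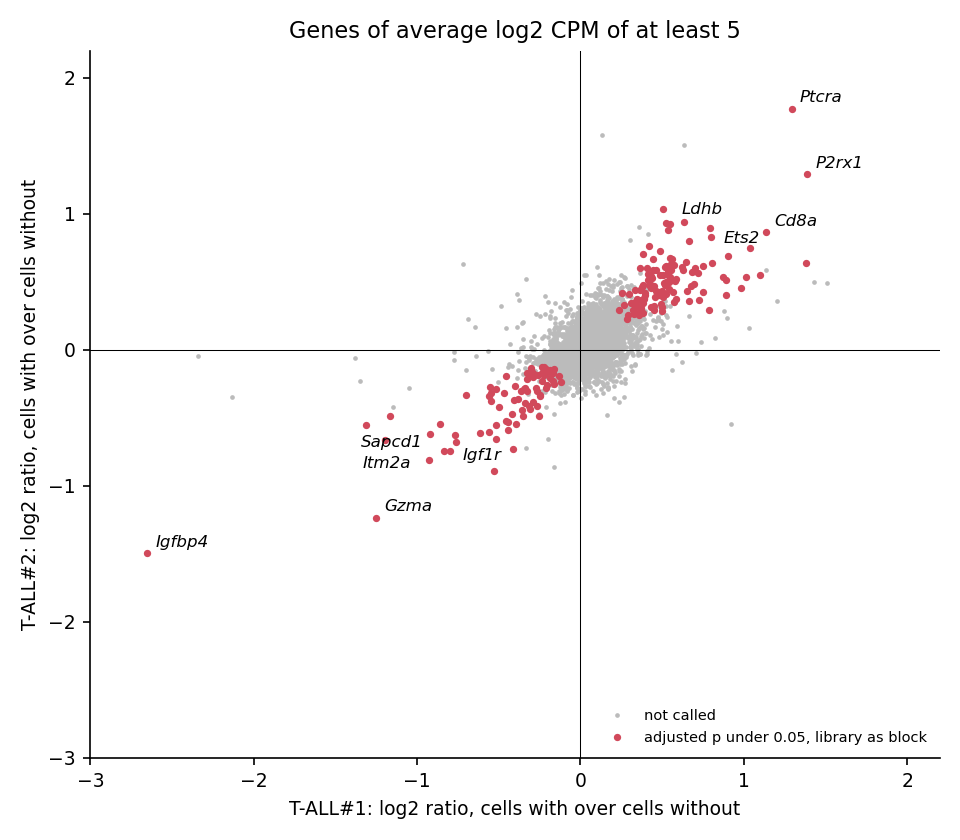
Log2 ratio of summed CPM in cells with at least 1 UMI of Il22 or Iltifb over depth-matched cells with none, T-ALL#1 on the horizontal and T-ALL#2 on the vertical axis, each point a gene of average log2 CPM of at least 5. Red points had an adjusted p under 0.05 in edgeR with the leukemia as a block, and labels name 5 genes in each direction, among them Ptcra (1.29 and 1.77) and Gzma (−1.25 and −1.23).

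Other cell properties moved with this contrast. Over all cells of T-ALL#1, cycling cells were less often positive (44.5%) than the others (67.7%), while in T-ALL#2 these shares were 20.9% and 20.6%. Among the depth-matched cells, those with the pair were more often cycling, 53.3% against 45.0% in T-ALL#1 and 40.2% against 31.4% in T-ALL#2. In these matched cells 26 of 54 G2M genes and 7 of 43 S genes rose with none falling. After matching on cycling these counts were 4 and 2, among 315 called genes (2.77%, with 1.04% higher and 1.73% lower), of which 214 were shared with the 359. After matching on Cd4, Cd8a and Il2ra 566 genes were called (5.09%, with 2.12% higher and 2.97% lower), 264 of them shared. Of 5 tested B cell markers, Cd79a, Cd79b and Ebf1 fell, and the sets without the pair held 11 and 3 cells with at least 3 B or myeloid markers against 2 and 0 in the sets with it. Without such cells the log2 fold change of Cd79a was 0.74 (adjusted p = 0.65), and 677 genes were called, 342 of them among the 359. Of 16 early response genes, Fosb, Junb, Ier2, Hspa1a and Hspa1b fell, where 1.61% were called lower over all genes. After matching on cycling 3 of the 16 were called lower, and 1 after matching on Cd4, Cd8a and Il2ra. All 77 ribosomal protein genes were lower in both leukemias in cells with the pair, of which 3 were called (Rpl8, Rpl30 and Rpl37), and 74 were called lower after matching on Cd4, Cd8a and Il2ra.

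Genes of the type 3 program were not gained in both leukemias together with the pair. Of 24 genes of type 3 lymphocytes, none was above and 13 were below both WT and the preleukemic library in both leukemias beyond counting intervals, against 7.95% above and 22.3% below over 19421 detected genes. Scaling by TMM factors, which ran from −0.32 to 0.23 log2 over the libraries, left 0 above and 12 below, against 16.1% and 12.4%. Il17a had no UMI in any library. Il23r, the receptor subunit for IL-23, had 1 UMI in T-ALL#1 and 0 in T-ALL#2. Of the 8 genes tested between cells with and without the pair, 1 rose and Il7r, Ltb and Tmem176b fell.

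Receptor genes were measured to see whether the same cells carried the means to respond. Il22ra1, which encodes the specific receptor chain, had no UMI in any library. Il10rb, the shared chain, was at 15.4 CPM in WT and 17.5 CPM before leukemia, and at 5.23 and 3.62 CPM in the leukemias. Il22ra2 had at most 2 UMIs in a library. Of the 12 genes of the receptor and its signal chain, 1 was above both earlier libraries in both leukemias, the feedback inhibitor Socs3 at 24.2 and 8.17 CPM against 5.37 and 1.37 CPM, and 6 were below (5 with TMM factors). Over all detected genes 7.95% were above and 22.3% below (16.1% and 12.4% with TMM factors). The 1 gene above is thus not read as a result about this list. Between cells with and without the pair, Jak1 was the 1 called gene of 9 tested and fell by 0.37 on the log2 scale (SE 0.05, adjusted p = 0.020), and it was not called after matching on Cd4, Cd8a and Il2ra (adjusted p = 0.068).

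Il7r was the 1 gene called, as lower, of 9 tested receptors that act upstream of Il22. Of 3 tested IL-22 response genes of epithelium, 1 Ahr target gene, 8 genes of the transgenes and the Tal1 complex and 8 neighbours of the pair on the chromosome, 0 were called, where 3.14% were called over all genes, so lists of this size say little. Gata3 was called lower after matching on cycling (adjusted p = 0.046) and on Cd4, Cd8a and Il2ra (adjusted p = 0.015), and Mdm1 higher after the latter (adjusted p = 0.038).

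Related cytokines and neighbouring genes were counted against the shares of all detected genes above (7.95%) and below (22.3%) both earlier libraries, and with lists this short nothing particular to them is read from the counts. Of 6 other ligands of the IL-10 family, Il10 had 238 UMIs in T-ALL#1 (3.36 CPM) and 1 in T-ALL#2, and Il19, Il20, Il24, Ifnl2 and Ifnl3 had at most 3 UMIs in any library. Of 23 further T cell cytokines none was above both earlier libraries in both leukemias and 6 were below (5 with TMM factors). Ifng, the next protein-coding gene beyond Iltifb among those listed, was at 1.91 CPM in WT and 0.906 CPM before leukemia, and at 0.0848 and 0.248 CPM in the leukemias. Mdm1, on the side of Il22, was at 21.05 CPM in WT, at 22.7 CPM before leukemia and at 14.5 and 7.31 CPM in the leukemias. Of 9 neighbouring genes none was above both earlier libraries in both leukemias, other than Nup107 when TMM factors were used, and 6 were below (4 with TMM factors).

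**Figure D5:**
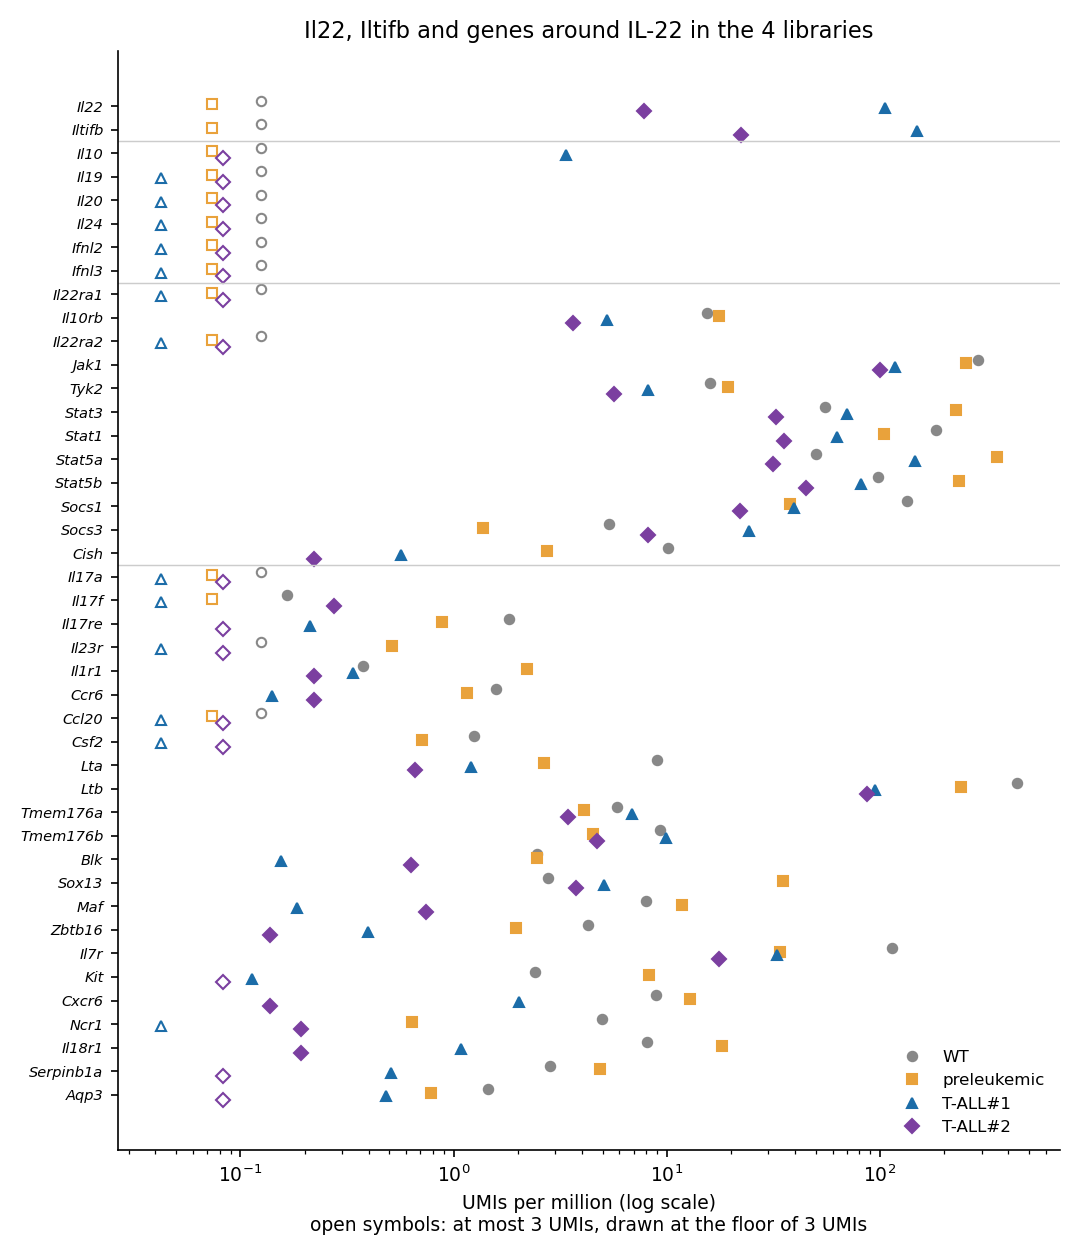
Levels of Il22, Iltifb, the other IL-10 family ligands, the IL-22 receptor and signal chain and genes of the type 3 lymphocyte program in CPM (log axis) in the 4 libraries, with open symbols at the floor of 3 UMIs where a library held at most 3 UMIs. Il22 and Iltifb were at that floor in WT and the preleukemic library and at 7.86 to 150 CPM in the leukemias, while Il17a and Il22ra1 were at the floor in all 4.

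Silence before leukemia was rare. Of 8151 genes at 5 CPM or more in both leukemias, 9 (0.11%) had at most 3 UMIs in WT and in the preleukemic library: Iltifb, Il22, Exoc3l4, Vgll1, Emx2, Ace, Parm1, Calml4 and Lmcd1. In T-ALL#1 the pair stood above the other 7, which ran from 5.23 CPM (Lmcd1) to 31.4 CPM (Exoc3l4). In T-ALL#2 Iltifb (22.4 CPM) lay below Ace (44.6 CPM) and Vgll1 (27.7 CPM), and Il22 (7.86 CPM) was second lowest, above Calml4 (6.43 CPM). Gm266, which gained in both leukemias at 338 and 231 CPM, had 20 UMIs in the preleukemic library and so was not among them. Of the 7 other genes, Calml4 alone was called between cells with and without the pair, and was lower in cells with it.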

How the data were processed

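Viable thymic cells of 4 mice were profiled by droplet single-cell RNA sequencing. The deposited values are counts of UMIs per gene and barcode, which the authors made with Cell Ranger 3.0.2 for WT, preleukemic and T-ALL#1 (called cells) and Cell Ranger 4 for T-ALL#2 (every barcode). The build is mm10 per the labels. The Cell Ranger version, and the cell calling it needed here, belong to T-ALL#2 alone and cannot be told apart from that mouse. More than 1 chemistry is named, and which library used which is not given in the sources used here.

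Cells with over 500 genes and under 10% mitochondrial UMIs were kept, for T-ALL#2 among barcodes of at least 3416 UMIs. No doublet caller was run. Groups held 1, 1 and 2 mice, so libraries were compared by value, with exact 95% Poisson or Clopper-Pearson intervals that cover counting error only and a floor of 3 UMIs. Members, lists and rules were chosen with earlier results of these data known.

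Cells with and without the pair were matched in depth bins of 0.1 log2 and summed per leukemia, Il22 and Iltifb were taken out, and sums were tested with edgeR 4.0.16 (TMM, filterByExpr, quasi-likelihood, Benjamini-Hochberg), with and without the leukemia as a block. Both sums of a leukemia come from 1 mouse, and the differences between leukemias correlated at 0.93 between cells with and without the pair, across 3884 genes. On simulated counts for this comparison (11501 genes) the fit without the block recovered 0% of changes of 1 or 2 log2, and the blocked fit 78% and 100% with 7 false calls. The simulated sums had a set spread, not that fitted to the real sums, and left out the draw of cells. These figures therefore do not give the recovery or false calls of the real comparison. Named genes were the 10 in each direction with the largest smaller log2 ratio of both leukemias, among genes called with the same direction and an average log2 CPM of at least 5. Fewer than 5 were called without the block, so the blocked calls were used. DESeq2 1.42.0 was an alternative. Of 31053 identifiers, 99.6% were found in GENCODE M21. A few genes and a motif are not reported here.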

Additional observations from a re-analysis of the deposited data

Results flagged for a closer look

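Il22 and Iltifb were also found outside the kept cells. In T-ALL#2, barcodes of at most 100 UMIs held Il22 at 7.16 CPM (13 UMIs) and Iltifb at 22.6 CPM (41 UMIs), while the kept cells held 7.86 and 22.4 CPM. Cells removed for a mitochondrial share of 10% or more held the pair as well. In T-ALL#1, 1470 such cells held Il22 at 172 CPM (160 to 185) and Iltifb at 230.0 CPM (216 to 245), above the kept cells, at a median depth of 2311.5 UMIs and a median mitochondrial share of 32.5%. In T-ALL#2, 721 such cells held Il22 at 4.68 CPM (2.86 to 7.23) and Iltifb at 18.7 CPM (14.8 to 23.3), at a median depth of 4576 UMIs. The part of depth and of free RNA in these values was not tested.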

How the results depend on the processing

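Levels, shares, ratios and counts of called genes were compared with their values under other settings, leaving aside the omission of a mouse. Of these values 25 stayed within the interval or spread (counts of genes within 1.5 times) and 32 moved. Under settings chosen after seeing the data 3 stayed and 10 moved. Counts of called genes were scored against the 0 of the fit without the block. Each edgeR fit without the block again called 0 and was scored as stayed. Each fit with the block was scored as moved, even the 359 with an upper limit on genes, equal to the 359 used here. For called genes these scores therefore do not show how the calls with the block hold under other settings. Without a mitochondrial limit, Il22 and Iltifb in T-ALL#1 were at 109.5 and 154 CPM, and the shares of positive cells were 54.4% in T-ALL#1 and 16.9% in T-ALL#2. As a mean over cells, Il22 was at 250.1 and 14.5 CPM and Iltifb at 299 and 35.5 CPM in T-ALL#1 and T-ALL#2, and with TMM factors the levels were 112 and 9.85 CPM and 158 and 28.0 CPM. With a UMI limit for T-ALL#2 at the double, Il22 and Iltifb there were at 6.29 and 19.5 CPM. With at least 2 UMIs required, 46.8% and 10.8% of cells were positive, and 41.5% and 7.24% when thinned to 2000 UMIs. Cells with Cd4 and Cd8a, and cells with neither, were here pooled over cells with and without Il2ra, unlike the 8 groups above. The ratio of their summed levels was 7.82 and 4.91 in T-ALL#1 and T-ALL#2, 4.69 and 7.27 when thinned, and 15.3 and 6.32 with Cd8a or Cd8b1. The ratio of other over cycling cells was 3.92 and 2.23 when cycling meant Mki67 or Top2a, and 1.91 in T-ALL#2 when thinned. Co-detection over expected was 2.05 and 6.58 when thinned, and 1.23 and 2.68 within depth, cycling and marker groups.

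Of genes called between cells with and without the pair, 0 without the block became 359 with the replicate block and 5 with DESeq2 (190 with the block). With the block, calls numbered 1226 with no count filter, 508 with nearest-depth matching, 532 with at least 2 UMIs, 563 for Il22 alone, 804 for Iltifb alone, 944 in a second draw of cells (337 of the 359 among them), 359 with an upper limit on genes, 677 without B-like and myeloid-like cells, 315 when matched on cycling and 566 on marker groups. Cd79a turned from lower to higher without the B-like and myeloid-like cells, at 0.34 log2 and 0.74 with the block. No other of the 81 called genes that are named or in a list turned sign. The cause of these moves was not tested.

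With either leukemic replicate left out, the mean level of both leukemias (56.8 CPM for Il22, 86.0 CPM for Iltifb) ran from 7.86 to 105.7 CPM and from 22.4 to 149.7 CPM, and the mean share of 39.7% from 20.7% to 58.7%. Depth limits the values of WT and the preleukemic library to the floors given, and the division of reads between the copies limits each gene's own level.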
